A study of Solanum lycopersicum with 30 samples.

Results

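The subject is a group of 36 array probe sets that carry no gene name and read lower in roots of the tomato mutant rmc than in wild type (WT) roots under every treatment of a field experiment. Members were chosen by their readings. A member had no gene symbol in the array's annotation, a mean log2 signal of at least 7 over the 15 WT arrays, and a WT group mean at least 0.7 above the rmc group mean, on the log2 scale, in each of the 3 treatments. Of 10038 probe sets that are not controls, 9129 had no symbol, 5627 of these reached the WT level, and 36 met the whole rule. The difference between genotypes is therefore what defined the members, and its values are given below as a description, without a test.

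Most land plants, tomato included, can host arbuscular mycorrhizal fungi, which grow into the root cortex and pass phosphate and nitrogen from soil to the plant. The host uses a shared signalling pathway to admit the fungus, and the mutant rmc (reduced mycorrhizal colonization) admits little of it. The rmc line came from fast neutron mutagenesis, and its lesion has been placed in the chromosome region that holds the tomato counterpart of CYCLOPS, a nuclear protein of that pathway. Ammonium is one of the nitrogen forms that roots and fungi take up from soil patches.

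Each of the 30 arrays measured total RNA from root pieces of 1 sample, with 5 arrays in each of 6 groups. Plants of both genotypes were 8 weeks old when set into field soil and spent 5 more weeks there. Small soil patches then received water or ammonium by injection, and the roots in them were cut out 24 h later. The rmc groups received water, 6.5 ppm ammonium (low N) or 65 ppm ammonium (high N). The WT groups received water, 10 µM ammonium (low N) or 100 µM ammonium (high N). The labels thus give the ammonium dose in different units for the 2 genotypes, so equal doses cannot be assumed from them, and a low N or high N comparison between genotypes may hold a difference of dose. The design calls the 5 samples of a group biological replicates, and the spread quoted here is the spread between them. No source used here says whether plants shared a row, bed or extraction batch.

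The deposited values were log2 signals from Affymetrix MAS5, which subtracts a local background and scales each array. The trimmed mean signal was 500.0 to 500.1 on every array, and 2.42% to 3.37% of probe sets stood at exactly 0. The median correlation of an array with the others of its group was 0.946 to 0.981. The 23 negative control probe sets of the array read at most 3.36, which is used below as the level under which a reading is not told apart from background. The poly-A RNA spikes, added to a sample before labelling, averaged 8.83 ± 0.24 in rmc and 8.47 ± 0.12 in WT under water, 8.51 ± 0.23 in rmc and 8.31 ± 0.33 in WT under low N, and 7.95 ± 0.57 in rmc and 8.13 ± 0.19 in WT under high N (log2, SD, n = 5 each). The array rmc high N replicate 2 had the lowest spike reading of all, 7.04, and several members were far from the rest of their group on it, as given below.

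The tissue was checked with marker genes. Of 11 leaf genes listed, the 4 found on the array (CAB4, CAB6A, PSBO and PSBR, all parts of the photosynthetic apparatus) averaged 5.66 ± 0.49 in rmc and 5.50 ± 0.47 in WT (log2, SD, n = 15 each). Of 9 genes of dividing cells, PCNA, TUB and cdc2A-2 were found and averaged 9.30 ± 0.33 in rmc and 9.45 ± 0.30 in WT. None of the 11 listed genes of mycorrhizal roots could be found by symbol, so fungal colonization was not checked with named markers.

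The members came from 32 different ID stems, since 3 stems appeared more than once. Les.2689 gave 3 members, and Les.507 and LesAffx.53180 gave 2 each. Probe sets of 1 stem were designed from related tomato transcripts, so they are not independent measurements. The orientation letter in the ID was A for 7 members (19.4%), beside 25.1% of all unnamed probe sets, and 16 IDs began with LesAffx (44.4%), beside 45.2%. The annotation used here pairs none of these IDs with a gene, and no probe sequence was used, so no function is given for any member.

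The difference between genotypes ranged widely. In rmc minus WT on the log2 scale, the median over the 36 members was -1.01 under water, -1.43 under low N and -1.21 under high N. A typical member thus read about 2.20-fold higher in WT (the median of the WT over rmc folds of geometric means), and the smallest such fold was 1.79. Averaged over treatments and taken as read, 4 members had a difference of -5 or beyond, 3 lay between -5 and -2, and 29 lay between -2 and the threshold. The smallest of a member's 3 differences was the one under water for 21 members, under low N for 7 and under high N for 8. Since roots are a mixture of cells, fewer cells of a type and less RNA per cell cannot be told apart in any of these values.

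**Figure D1:**
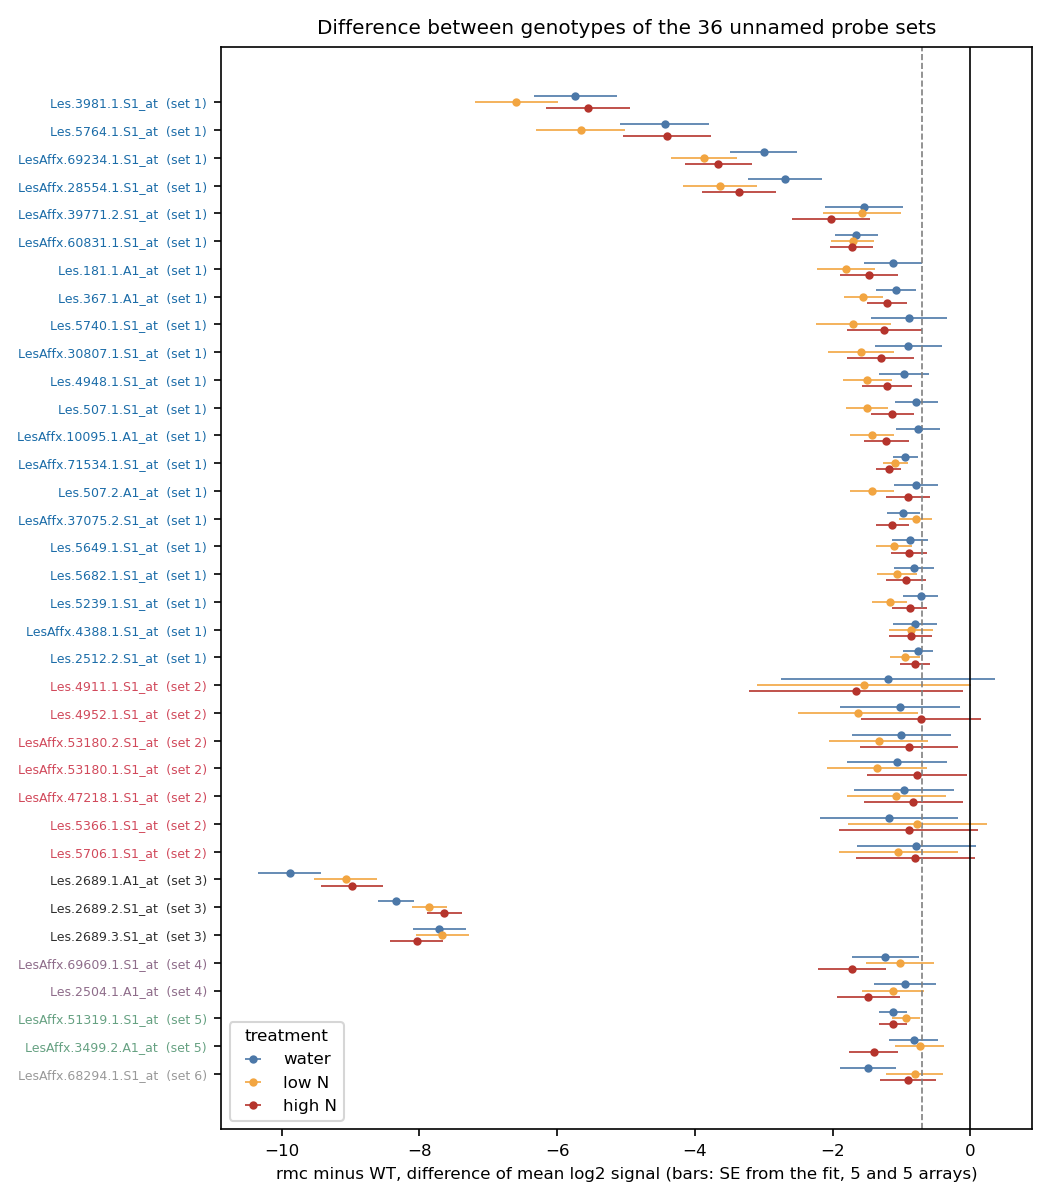
Difference of mean log2 signal, rmc minus WT, for each of the 36 members (rows, coloured by the sets described in the text) under water, low N and high N, with bars for the standard error from the fit over all 30 arrays. The dashed line marks the rule's threshold at -0.7. The 3 probe sets of Les.2689 lie beyond -7 as read, but their rmc readings are at background, so these differences have no firm size, and 4 members of set 1 lie between -7 and -2, and the rest crowd near the threshold, with the widest bars in set 2.

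Taken as read, the largest differences were those of the Les.2689 probe sets. These read near or under background in rmc and at a steady high level in WT. Les.2689.1.A1_at read 0.00, 0.00, 2.03, 1.58 and 0.43 on the 5 rmc water arrays, against 10.84, 10.78, 10.57, 10.44 and 10.83 on the 5 WT water arrays. Over all treatments its 15 rmc values ran between 0.00 and 3.23 with a median of 1.43, against 9.93 to 10.84 with a median of 10.57 in WT. All 15 rmc readings were thus at or under the negative controls and every WT reading was far above them. The signal of Les.2689.1.A1_at was at least 143-fold lower in rmc, taking the background level as the bound.

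Les.2689.2.S1_at read 0.00 on all 5 rmc water arrays, and 8.39, 8.50, 8.44, 8.19 and 8.17 on the 5 WT water arrays. Its highest rmc reading was 1.82 and its lowest WT reading was 7.82, and the signal was at least 30.8-fold lower in rmc by the same bound. Les.2689.3.S1_at ran between 0.07 and 3.67 in rmc, with 14 of 15 readings at or under the negative controls, against 9.83 to 10.45 in WT. With each rmc reading under the background level raised to it, the signal of Les.2689.3.S1_at was at least 113-fold lower in rmc, and 1 rmc array measured it above that level. The genotypes did not overlap on any of the 3 probe sets in any treatment.

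These probe sets also varied little between WT arrays. The SD between WT arrays, pooled over the 3 treatments after removing group means, was 0.18 for Les.2689.3.S1_at, the smallest of all members, and at most 0.24 in the 3 probe sets. Over the 7528 probe sets tested, the median of this SD was 0.20. Les.2689 therefore combined the largest differences between genotypes, as read, with a WT spread that was ordinary for the array.

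Next in size as read were Les.3981.1.S1_at and Les.5764.1.S1_at. Les.3981.1.S1_at read 3.17, 2.84, 5.22, 2.34 and 3.30 in rmc water roots, against 10.09, 9.48, 8.88, 8.50 and 8.60 in WT water roots. Under low N it read 2.51, 2.69, 3.39, 2.92 and 2.75 in rmc, against 9.45, 9.94, 8.45, 9.55 and 9.83 in WT. Under high N it read 3.48, 4.10, 3.39, 3.66 and 3.53 in rmc, against 11.06, 9.71, 6.04, 10.39 and 8.72 in WT. No rmc value reached any WT value, 8 of the 15 rmc readings were at or under the negative controls, and the lowest WT value, on WT high N replicate 3, stood well below the next one, 8.45. Its mean difference was -5.96 as read. With the readings under background raised to that level, the signal was at least 50.8-fold lower in rmc. That bound exceeded the 30.8-fold of Les.2689.2.S1_at.

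Les.5764.1.S1_at ran between 2.57 and 6.12 in rmc (median 4.31) and between 6.12 and 10.82 in WT (median 9.37). The highest rmc reading, rmc water replicate 3, and the lowest WT reading, WT high N replicate 3, were equal to 2 decimals, so the genotypes touched without overlapping. Its mean difference was -4.84 as read, with 3 of the 15 rmc readings at or under the negative controls, and the second probe set with its ID stem, Les.5764.1.A1_at, had a highest reading of 2.25 in rmc and 2.86 in WT, under the negative control level throughout.

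LesAffx.69234.1.S1_at ran between 2.89 and 4.60 in rmc (median 4.13) and between 5.03 and 9.16 in WT (median 7.86), with a mean difference of -3.51. LesAffx.28554.1.S1_at ran between 3.53 and 7.37 in rmc (median 5.67) and between 7.11 and 10.07 in WT (median 8.98), with a mean difference of -3.23. The genotypes did not overlap on LesAffx.69234.1.S1_at. On LesAffx.28554.1.S1_at they overlapped through 1 WT array, again WT high N replicate 3. LesAffx.39771.2.S1_at, the eighth by size, overlapped more widely, with 4.52 to 8.05 in rmc and 5.95 to 9.16 in WT and a mean difference of -1.71.

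**Figure D2:**
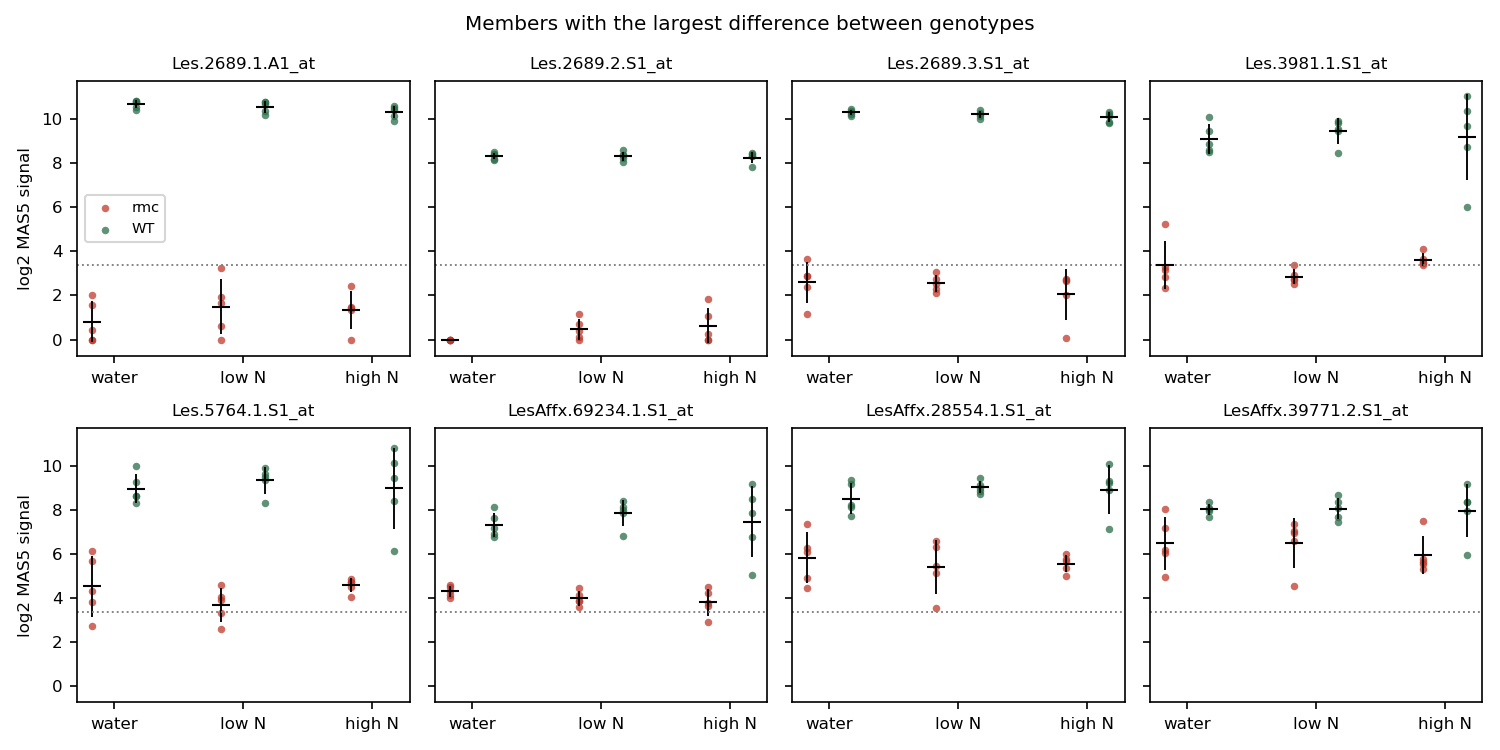
Log2 MAS5 signal on every array for the 8 members with the largest mean difference, by treatment, with rmc points left of WT points in each pair. Horizontal marks and bars are the mean and SD of 5 arrays, and the dotted line is the highest negative control reading, 3.36. The Les.2689 probe sets sit at or near background in rmc and in a tight band in WT, while the other 5 members spread far more widely in WT, where 1 high N array lies below the rest.

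How often the genotypes separated fully was also counted. Every rmc array was under every WT array of the treatment for 17 of 36 members under water, beside 1.98% of all probe sets tested. The count was 25 of 36 under low N, beside 2.75%, and 14 of 36 under high N, beside 1.32%. Over all 15 and 15 arrays, 8 members separated, beside 0.146% of all probe sets tested. The rule chose members on these readings, so these counts only describe them. The 8 were the 3 probe sets of Les.2689, Les.3981.1.S1_at, Les.5764.1.S1_at, LesAffx.69234.1.S1_at, LesAffx.71534.1.S1_at and LesAffx.51319.1.S1_at. Without WT high N replicate 3 the number was 11, with LesAffx.28554.1.S1_at, LesAffx.37075.2.S1_at and LesAffx.60831.1.S1_at added.

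LesAffx.71534.1.S1_at and LesAffx.51319.1.S1_at were separate with far smaller differences, and LesAffx.71534.1.S1_at is named here because it separated, after its values were seen. It ran between 6.53 and 6.92 in rmc (median 6.67) and between 7.03 and 8.61 in WT (median 7.72), with a pooled SD of 0.10 in rmc and 0.40 in WT. LesAffx.51319.1.S1_at ran between 7.94 and 9.57 in rmc (median 9.06) and between 9.67 and 10.57 in WT (median 9.95), with a pooled SD of 0.43 in rmc and 0.20 in WT. The spread was narrower in rmc for LesAffx.71534.1.S1_at and narrower in WT for LesAffx.51319.1.S1_at.

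At the other end, 4 members lay just inside the threshold. The smallest of the 3 differences was -0.75 for LesAffx.10095.1.A1_at, -0.74 for LesAffx.3499.2.A1_at, -0.72 for Les.5239.1.S1_at and -0.71 for Les.4952.1.S1_at. Just outside were Les.2460.2.S1_at at -0.68 and Les.4685.1.S1_at at -0.68. On the level criterion, LesAffx.63813.1.S1_at was left out with a WT mean of 6.99 although its smallest difference was -6.41. In all, 46 unnamed probe sets met the difference criterion with a WT mean under 7, and 12 were higher in rmc by the mirrored rule. Leaving out each array in turn, 16 of the 36 members met the rule in all 30 repeats.

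Probe sets that share an ID stem with a member but were not members gave a partial second reading. There were 10 of them, none with a gene symbol. LesAffx.37075.1.S1_at averaged 4.91 in rmc and 6.09 in WT, a difference of -1.18, and LesAffx.10095.1.S1_at averaged 3.64 in rmc and 4.77 in WT, a difference of -1.13. LesAffx.71534.1.A1_at differed by -0.94 and LesAffx.3499.1.S1_at by -0.80, while LesAffx.3499.2.S1_at differed by -0.56 and LesAffx.51319.1.A1_at by -0.54. These 6 were lower in rmc, as the members of their stems were. Of these, only LesAffx.37075.1.S1_at has the orientation letter of its member, so the others may not read the same strand. LesAffx.10095.1.S1_at and LesAffx.71534.1.A1_at also had lowest rmc readings of 2.87 and 3.10, under the negative control level. Les.2512.3.S1_at averaged 11.02 in rmc and 10.93 in WT and Les.5682.2.A1_at averaged 11.55 in rmc and 11.67 in WT, differences of 0.09 and -0.13. For Les.2512 and Les.5682 the probe sets of 1 stem thus read differently. Les.5649.1.A1_at, like Les.5764.1.A1_at, read under the negative control level on every array.

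Between replicate arrays the members varied more than most probe sets. The pooled SD had a median of 0.68 in rmc and 0.58 in WT over the members, where the medians over all probe sets tested were 0.25 in rmc and 0.20 in WT. Restricting the comparison to tested probe sets with a WT mean of at least 7 gave medians of 0.23 in rmc and 0.19 in WT. The spread was larger in rmc than in WT for 20 of 36 members. The rule used group means only and set no limit on spread, so probe sets with variable readings could meet it more easily. The larger spread of the members is therefore a description, and the part of it that came from the rule was not tested.

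The members did not vary independently. Deviations from group means were correlated over the 15 WT arrays, and members were joined by average linkage at a correlation of 0.5, which gave 6 sets of 21, 7, 3, 2, 2 and 1 members. These sets were built from the WT values, so a higher correlation within a set in WT than in rmc is expected from how they were built. Their correlations are a description, and all correlations share the same 15 arrays. In rmc 5.08% of member pairs correlated at 0.9 or more, beside 0.288% of all pairs tested, and in WT 11.6% of member pairs did, beside 0.0755%.

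**Figure D3:**
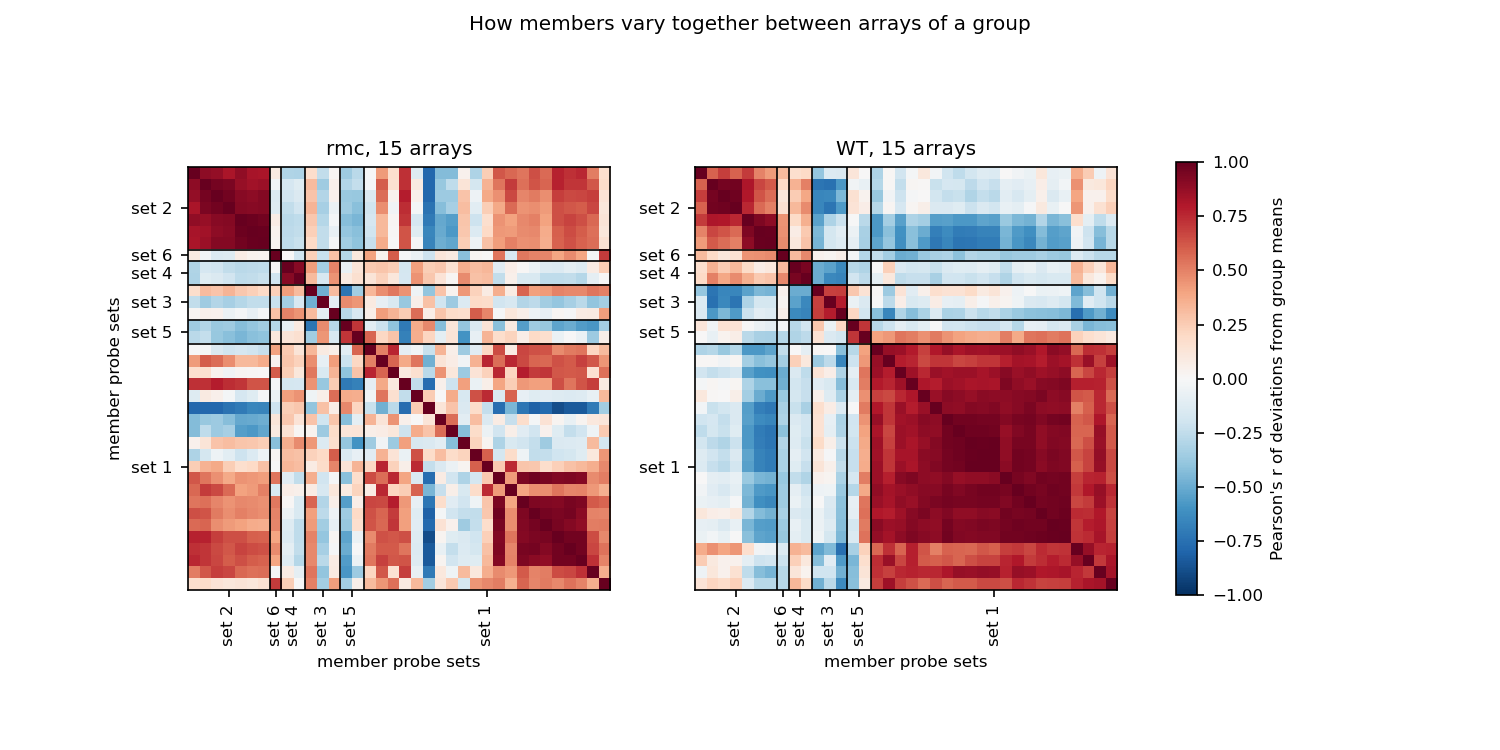
Pearson correlation of deviations from group means between all pairs of the 36 members, over 15 rmc arrays (left) and 15 WT arrays (right), in 1 order fixed by the linkage in WT, with lines between sets. Set 1, with 21 members, is a solid block in WT, where the sets were built, and has a median correlation of 0.28 in rmc. Set 2, with 7 members, has a median correlation of 0.91 in rmc and 0.69 in WT.

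Set 1, with 21 members, held 5 of the 8 largest differences (Les.3981.1.S1_at, Les.5764.1.S1_at, LesAffx.69234.1.S1_at, LesAffx.28554.1.S1_at and LesAffx.39771.2.S1_at) and both Les.507 probe sets. The median correlation between its members was 0.28 in rmc and 0.85 in WT, where the set was built. On WT high N replicate 3 the set stood on average 1.36 below its group mean, and on WT high N replicate 1 it stood 0.94 above. Without WT high N replicate 3 the median correlation in WT was 0.80.

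The other 16 members of set 1 had mean differences between -1.70 and -0.84. The largest was that of LesAffx.60831.1.S1_at, which ran between 7.31 and 8.56 in rmc (median 8.11) and between 8.53 and 10.42 in WT (median 9.79). Les.181.1.A1_at followed, with 5.03 to 7.45 in rmc (median 6.75) and 6.45 to 9.14 in WT (median 7.98). Les.367.1.A1_at ran between 8.78 and 10.52 in rmc (median 9.32) and between 9.91 and 11.76 in WT (median 10.84). In each of these the medians lay apart and the ranges overlapped. Les.2512.2.S1_at had the smallest mean difference of all 36 members, with 5.63 to 7.16 in rmc (median 6.08) and 6.39 to 8.41 in WT (median 7.12). LesAffx.60831.1.S1_at, Les.181.1.A1_at and Les.367.1.A1_at were named here after their values were seen.

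On WT high N replicate 3, 13 members had their lowest WT value, and all 13 belonged to set 1. Of all probe sets tested, 3.72% had their lowest WT value there. On that array 26 of 36 members read within or under the range of the 15 rmc arrays, where the other 14 WT arrays had 10 to 22 such members. In set 1 it was 17 of 21, where the other WT arrays had 0 to 14, and in set 2, which overlapped widely, 5 to 7 of 7 on every WT array. Of all probe sets tested, 94.2% read within or under the rmc range on WT high N replicate 3, and 88.7% to 96.8% did on the other WT arrays. LesAffx.39771.2.S1_at is an example. It read 5.31, 7.49, 5.75, 5.55 and 5.62 in rmc high N roots, against 9.16, 8.38, 5.95, 8.37 and 7.96 in WT high N roots, where the third value was among the rmc values and the other 4 were above them all. The Les.2689 probe sets were not low on that array, with 10.59, 8.45 and 10.35 for Les.2689.1.A1_at, Les.2689.2.S1_at and Les.2689.3.S1_at in that order, all inside their WT range. The cause of the low readings was not tested.

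**Figure D4:**
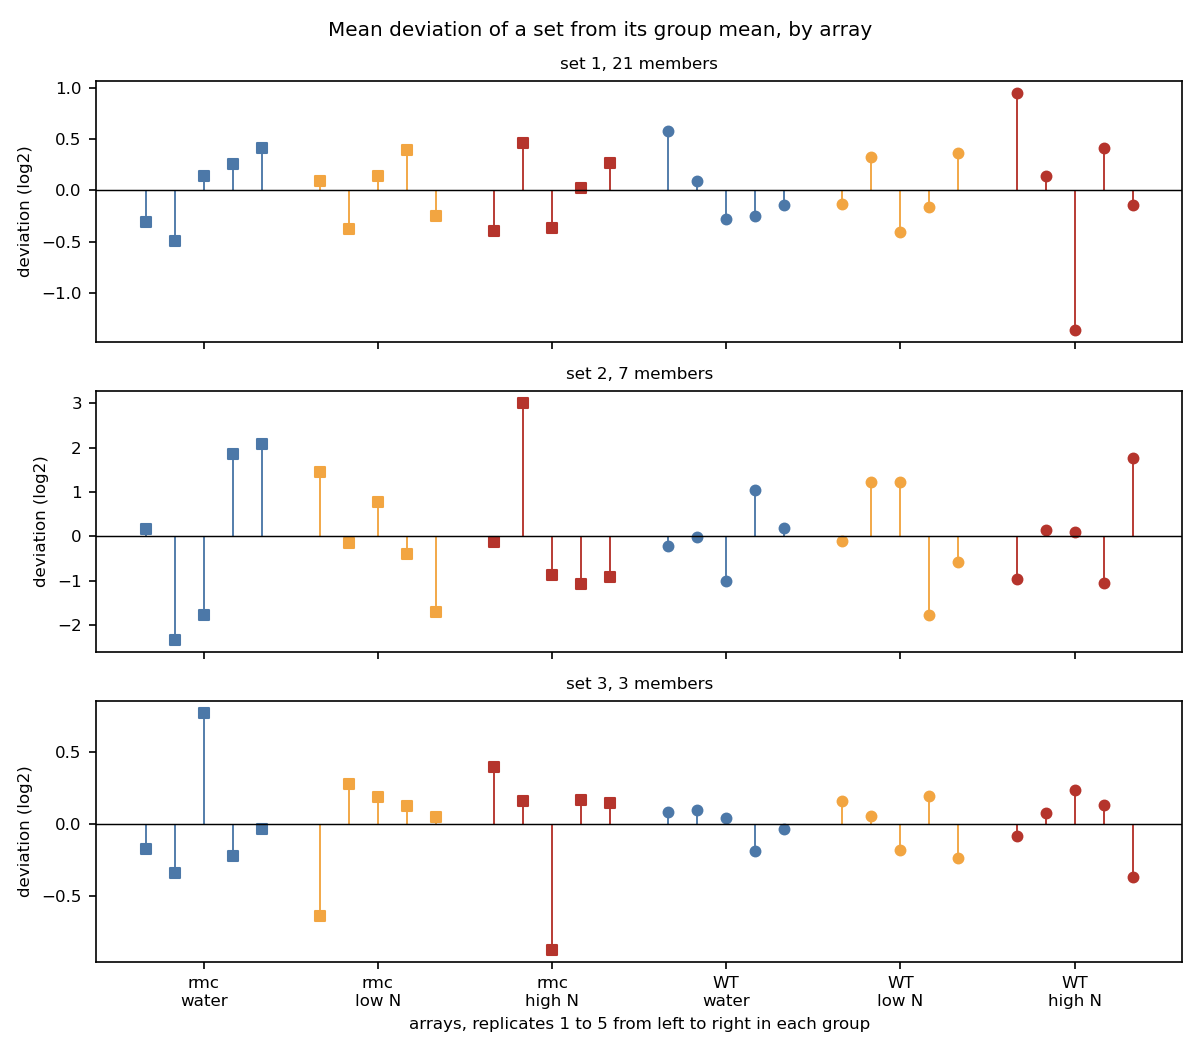
Mean deviation from the group mean (log2) of the members of set 1 (21 members), set 2 (7 members) and set 3 (3 members, Les.2689) on each of the 30 arrays, rmc groups on the left as squares and WT groups on the right as circles. Set 1 falls by 1.36 on WT high N replicate 3, set 2 swings by more than 1 on many arrays of both genotypes, and set 3 moves little in WT.

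Among probe sets with a gene symbol, those that followed the mean of set 1 most closely over the WT arrays were LOC543717, GA3ox1, DDTFR8, RNALE, ZDS and LOC544264. GA3ox1 encodes a gibberellin 3-oxidase, which makes bioactive gibberellin, RNALE encodes ribonuclease LE, known from phosphate-starved tomato cells, and ZDS encodes a carotenoid desaturase. LOC543717 averaged 5.97 ± 0.90 in rmc and 9.07 ± 0.96 in WT, a difference of -3.10, and GA3ox1 averaged 5.23 ± 0.87 in rmc and 7.74 ± 0.72 in WT, a difference of -2.51 (log2, SD, n = 15 each). RNALE differed by -1.10, LOC544264 by -1.46 and DDTFR8 by -0.80, while ZDS differed by only -0.10. Over the 15 rmc arrays their correlation with the set was -0.08 for LOC543717, 0.47 for GA3ox1, 0.61 for DDTFR8, -0.05 for RNALE, -0.02 for ZDS and -0.74 for LOC544264. Over the 15 WT arrays, where they were picked for it, it was 0.98, 0.95, 0.95, 0.94, 0.91 and 0.90 in the same order. In all, 22 probe sets outside the members correlated with the set at 0.9 or more in WT, and all 22 had a lower mean in rmc. The count was 6 of 10 for set 2 and 13 of 55 for set 3, and 49.9% of all tested probe sets outside the members had a lower mean in rmc. Probe sets sharing an ID stem with a member, or meeting the difference criterion with a WT mean under 7, were not left out. The counted probe sets also vary together over the same arrays, so these counts are only a description.

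Set 2 held Les.4911.1.S1_at, Les.4952.1.S1_at, Les.5366.1.S1_at, Les.5706.1.S1_at, LesAffx.47218.1.S1_at and both LesAffx.53180 probe sets. It was the most variable set, with a median pooled SD of 1.63 in rmc and 1.10 in WT, and its members moved together in both genotypes, with a median correlation of 0.91 in rmc and 0.69 in WT. Les.4911.1.S1_at had the largest spread of all members. Under water it read 6.55, 2.32, 2.79, 9.97 and 9.77 in rmc, against 9.27, 8.81, 3.27, 8.98 and 7.04 in WT. Under high N it read 5.84, 9.81, 3.20, 5.72 and 6.43 in rmc, against 5.58, 10.20, 7.38, 5.96 and 10.19 in WT. High and low arrays were found in every group, and the genotypes overlapped over most of their range. Its difference was -1.20 ± 1.56 under water, -1.55 ± 1.56 under low N and -1.66 ± 1.56 under high N (log2, SE from the fit). Each was thus about the size of its own standard error. So were those of Les.5366.1.S1_at, at -1.18, -0.77 and -0.90 in the same order, each ± 1.01. For Les.5706.1.S1_at they were -0.78, -1.04 and -0.80, each ± 0.86. Elsewhere in set 2 the largest was -1.63 ± 0.87, for Les.4952.1.S1_at under low N.

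Les.5366.1.S1_at read 7.83, 3.64, 5.88, 9.19 and 9.20 in rmc water roots, against 7.94, 8.03, 7.85, 9.52 and 8.32 in WT water roots. Under high N it read 6.14, 9.61, 5.55, 4.76 and 5.31 in rmc, against 6.99, 6.98, 6.78, 5.68 and 9.41 in WT. Les.5706.1.S1_at ran between 4.30 and 8.86 in rmc (median 5.64) and between 5.31 and 9.02 in WT (median 7.24). The array rmc high N replicate 2 was the highest of its group for all 3 of these, and set 2 as a whole stood 3.00 above its group mean there. None of the 7 members of set 2 separated the genotypes in all 30 arrays, and Les.5366.1.S1_at met the rule in the fewest repeats, 21 of 30, when single arrays were left out.

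The named genes closest to set 2 in WT were PMEU1, a pectin methylesterase, EXP2 and exp9, both expansins, XOPG1, LOC543698 and DHAR1, a dehydroascorbate reductase. Their correlation with the set was 0.72 in rmc and 0.93 in WT for PMEU1, 0.87 in rmc and 0.87 in WT for EXP2, and 0.91 in rmc and 0.86 in WT for exp9. It was 0.89 in rmc and 0.87 in WT for XOPG1, 0.85 in rmc and 0.86 in WT for LOC543698, and 0.82 in rmc and 0.85 in WT for DHAR1. Pectin methylesterases and expansins modify the cell wall of growing tissue. Of these 6, EXP2 differed between genotypes by 0.05 under water, -1.83 under low N and -1.42 under high N, a mean of -1.07. Averaged over treatments exp9 differed by -0.42, and the other 4 by -0.10 to -0.14.

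Sets 4 and 5 were pairs. Les.2504.1.A1_at and LesAffx.69609.1.S1_at, named here after the sets were built, correlated at 0.91 in rmc and 0.95 in WT and had mean differences of -1.18 and -1.32. LesAffx.3499.2.A1_at and LesAffx.51319.1.S1_at correlated at 0.71 in rmc and 0.72 in WT and had mean differences of -0.99 and -1.06. LesAffx.68294.1.S1_at joined no other member and differed by -1.07.

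The nitrogen response averaged over both genotypes is not the difference that the rule used, and it was tested. It is built from the same group means, so it is free of the rule only where both genotypes have the same spread. For some members they do not, as for LesAffx.3499.2.A1_at, with a pooled SD of 0.79 in rmc and 0.26 in WT. Of the 36 members, 35 passed the filter on low values, which left out the lowest 25% of probe sets by mean signal over all arrays (Les.2689.2.S1_at did not pass). For 6 of the 35, the mean in rmc was under the filter level of 5.61, so they passed only through their WT readings, and a count over the 35 supports nothing about the members as a whole. The ammonium labels are in ppm for rmc and in µM for WT, so a response averaged over both genotypes may join different doses. With limma and Benjamini-Hochberg adjustment over the 7528 probe sets tested, 6 of 35 were called at an adjusted p under 0.05 for high N against water, 5 higher and 1 lower. Of all probe sets tested, 16.1% were called higher, 18.0% lower and 34.1% either way. At an unadjusted p under 0.05 there were 8 of 35 members, beside 3371 of all 7528 probe sets tested. The median response was 0.07 over the members and -0.01 over all probe sets tested. Without WT high N replicate 3, 10 members were called, 9 of them higher, beside 36.3% of all probe sets tested.

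Les.507.1.S1_at rose by 0.92 ± 0.22 (log2, SE, adjusted p = 0.00292 from limma). It read 7.58, 8.80, 8.00, 8.36 and 8.91 in rmc high N roots, against 7.07, 7.42, 7.24, 8.43 and 7.74 in rmc water roots. It read 10.28, 9.40, 8.29, 9.93 and 9.41 in WT high N roots, against 8.98, 8.58, 8.09, 8.09 and 8.07 in WT water roots. High N and water overlapped within each genotype, and 8 of 10 high N arrays stood above the water mean of their genotype. The second probe set of that stem, Les.507.2.A1_at, rose by 0.72 ± 0.23 (adjusted p = 0.0160 from limma), with 9 of 10 arrays above.

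Les.2512.2.S1_at rose by 0.80 ± 0.16 (adjusted p = 7.27e-04 from limma). It read 6.20, 6.93, 6.26, 6.77 and 7.16 in rmc high N roots, against 5.63, 5.97, 5.95, 5.97 and 5.96 in rmc water roots. It read 8.41, 7.34, 6.91, 7.59 and 7.13 in WT high N roots, against 7.12, 6.66, 6.44, 6.39 and 6.66 in WT water roots. In rmc the groups did not overlap, and in WT only WT water replicate 1 reached into the high N range. Its means were 5.90, 6.17 and 6.67 in rmc and 6.65, 7.13 and 7.47 in WT for water, low N and high N.

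LesAffx.10095.1.A1_at rose by 0.73 ± 0.23 (adjusted p = 0.0154 from limma) and Les.5239.1.S1_at by 0.71 ± 0.18 (adjusted p = 0.00431 from limma). All 10 high N arrays stood above the water mean of their genotype for Les.5239.1.S1_at and 8 of 10 did for LesAffx.10095.1.A1_at. All 5 members called higher belonged to set 1. Among the 29 tested members without a call, the response ran between -1.08 for Les.5706.1.S1_at and 0.86 for Les.5740.1.S1_at, which is named here for its value.

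LesAffx.3499.2.A1_at was the member called lower, and fell by 0.97 ± 0.25 (log2, SE, adjusted p = 0.00537 from limma). It read 9.56, 6.58, 9.52, 8.84 and 8.53 in rmc high N roots, against 9.87, 9.89, 10.04, 10.03 and 9.51 in rmc water roots. It read 10.13, 9.70, 10.29, 9.78 and 10.14 in WT high N roots, against 11.03, 10.69, 10.77, 10.75 and 10.19 in WT water roots. All 10 high N arrays were below the water mean of their genotype, and 1 of them, rmc high N replicate 2, was far below the others. Without that array the change was -0.72 ± 0.17 (adjusted p = 0.00336 from limma).

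**Figure D5:**
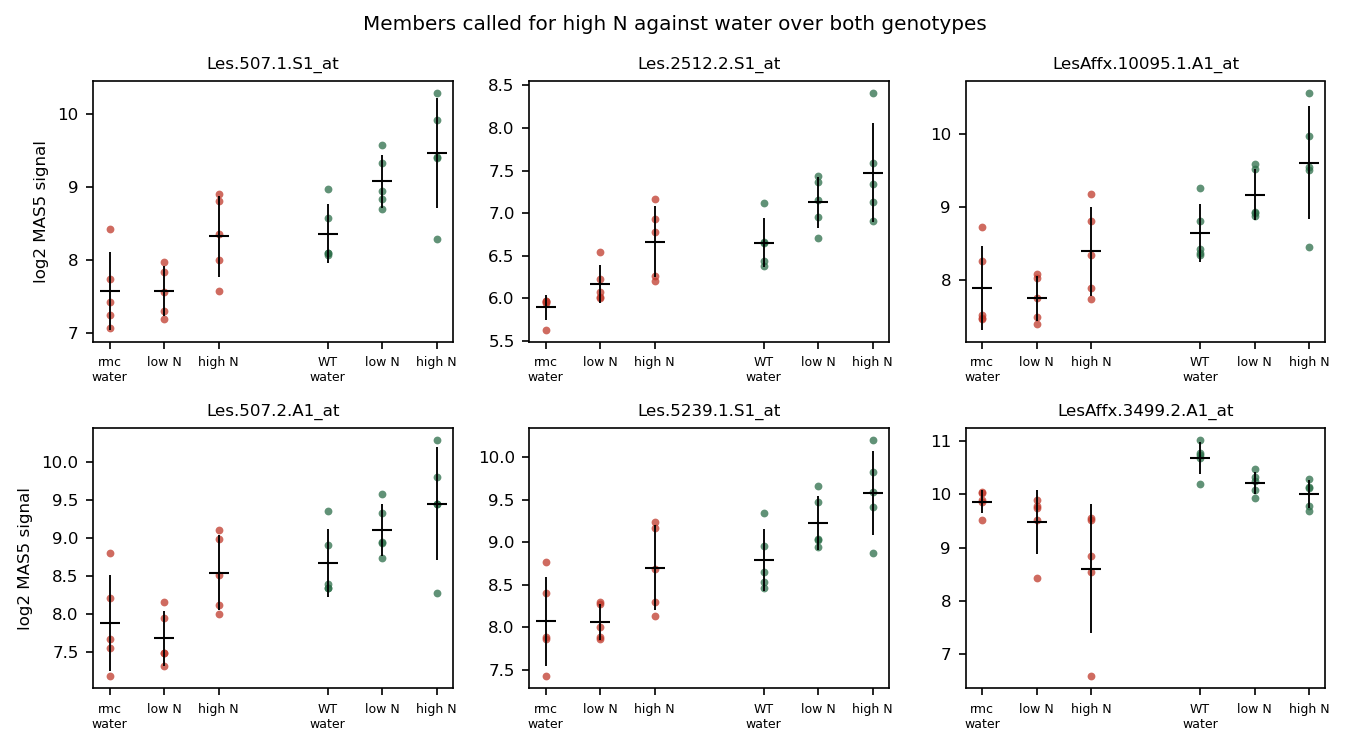
Log2 MAS5 signal on every array for the 6 members called for high N against water over both genotypes, with rmc groups left of WT groups and, within a genotype, water, low N and high N from left to right. Horizontal marks and bars are the mean and SD of 5 arrays. In 5 panels the high N mean is the highest of its genotype, and in the panel of LesAffx.3499.2.A1_at it is the lowest.

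The response to high N by genotype is given as values, since the same group means entered the rule. For Les.507.1.S1_at it was 0.75 in rmc and 1.10 in WT, for Les.2512.2.S1_at 0.77 in rmc and 0.82 in WT, and for LesAffx.3499.2.A1_at -1.26 in rmc and -0.68 in WT. Over set 1 the median response to high N was 0.24 in rmc and 0.38 in WT, and over set 2 it was -0.27 in rmc and -0.53 in WT. For Les.2689.1.A1_at and Les.2689.3.S1_at, whose rmc readings lay at background, it was -0.37 and -0.22 in WT. The differences of response between genotypes were not tested.

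Fitted within a genotype, high N against water called 2 of 35 members in rmc, 1 higher and 1 lower, where 3.28% of all probe sets tested were called higher, 1.06% lower and 4.34% either way. In WT it called 4 of 35, all higher, where 8.66% were called higher, 9.59% lower and 18.3% either way. The group means behind these counts entered the rule, so the counts only describe the members and nothing is read from them. Both counts turned on single arrays. In rmc the count was 4 without rmc high N replicate 1, 0 without rmc water replicate 1, 2, 3 or 5 or rmc high N replicate 2, 4 or 5, and 1 without rmc low N replicate 3, WT water replicate 2 or 5 or WT high N replicate 2 or 4. In WT it was 7 without WT high N replicate 3, 1 without WT water replicate 3 or WT high N replicate 1 or 4, and 2 without WT water replicate 4 or 5 or WT high N replicate 2 or 5.

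For low N against water over both genotypes, limma called none of the 35 members at an adjusted p under 0.05, where 0.0531% of all probe sets tested were called. At an unadjusted p under 0.05 there was 1 member, beside 588 of all 7528 probe sets tested. The 2 members with the smallest p over both genotypes were Les.2512.2.S1_at, at 0.38 ± 0.16 (log2, SE, adjusted p = 0.582 from limma), and LesAffx.3499.2.A1_at, at -0.43 ± 0.25 (adjusted p = 0.701 from limma). Within a genotype the means entered the rule and the values are a description. None was called in rmc, beside 0.0133% of all probe sets tested, and none in WT, beside 0.0266%. In rmc the response was positive for 8 of 35 members, beside 49.6% of all probe sets tested. In WT it was positive for 22 of 35, beside 46.2%. Set 1 held 6 of these 8 and 19 of these 22, and its members did not vary independently. The median response was -0.19 in rmc and 0.15 in WT, where the medians over all probe sets tested were 0.00 in rmc and -0.02 in WT.

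Other measures also differed in mean between high N and water, and no test was run on them. The difference between the 3' and 5' probe sets of the GAPDH control averaged -0.14 ± 0.15 under high N and 0.22 ± 0.07 under water in rmc, and -0.12 ± 0.07 under high N and 0.21 ± 0.11 under water in WT (log2, SD, n = 5 each). The 4 leaf genes averaged 5.32 ± 0.41 under high N and 5.77 ± 0.37 under water in rmc, and 5.24 ± 0.52 under high N and 5.92 ± 0.33 under water in WT. The 3 genes of dividing cells averaged 9.43 ± 0.34 under high N and 9.23 ± 0.47 under water in rmc, and 9.65 ± 0.22 under high N and 9.20 ± 0.23 under water in WT. In rmc the difference for these genes was smaller than either SD. The part of any of these in the responses was not tested. Scaling each array by its RNA spikes instead of its mean signal shifted the high N response of all probe sets by 0.61 over both genotypes. On that scale 17 members were called higher and none lower, where 78.1% of all probe sets tested were called, and the response of LesAffx.3499.2.A1_at was -0.36 (adjusted p = 0.0730 from limma). Les.507.1.S1_at, Les.507.2.A1_at, Les.2512.2.S1_at, Les.5239.1.S1_at and LesAffx.10095.1.A1_at were called higher on both scales. The spike scale raised every response to high N, so keeping a call higher on it was a weak check.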

How the data were processed

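Root RNA was hybridised to 1-colour Affymetrix tomato arrays, 1 sample per array. Per the submitters' processing notes, the deposited log2 values came from MAS5 in Affymetrix Expression Console, whose version is not given in the sources used here. MAS5 subtracts background and scales every array to 1 mean, so differences in total RNA per sample are removed and low values are noisy. The values were used as deposited.

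Groups were taken from the sample titles. Of 10209 probe sets, 171 controls were left out. Gene symbols came from the array annotation (909 probe sets). Members and gene lists were chosen with earlier results of these data known. One model with 6 group means was fitted over the 30 arrays in limma (version 3.58.1, under R 4.3.3), with moderated variances that follow signal level and two-sided contrasts, and p-values were adjusted by the Benjamini-Hochberg method over 7528 probe sets, those with a mean of at least 5.61 over all arrays (the lowest 25% left out). The fit was also run on simulated data, and since the settings and outcome are not given here, that run is not used as support. Spread is the SD within groups, pooled over 3 treatments. Deviations from group means were correlated (Python 3.11.15, numpy 2.4.6, scipy 1.17.1). The number of arrays limits the precision. Bounds against background used the mean WT signal over the mean of, per array, the higher of the probe set's own value and the highest negative control reading of all arrays.

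Members named in the text were the 8 with the largest mean difference, the 4 nearest the threshold, the 4 with the largest and the 2 with the smallest spread between WT arrays, up to 4 called in each direction per nitrogen comparison, and, where none was called, the 2 with the smallest p. Others are named where a count or set singled them out after their values were seen. Alternatives covered normalization, floors, filters, thresholds, array weights, a replicate block and leaving out each array.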

Additional observations from a re-analysis of the deposited data

Results flagged for a closer look

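In 113 groups of 5 arrays of the named members, 1 array stood apart from the other 4 by Dixon's criterion in 9 (7.96%). The criterion's rate of about 1 in 20 holds for independent, normally distributed readings. These groups share arrays, hold members that vary together and include background readings, so no excess is read from the percentage. Of the 9 flags, 3 lay on rmc high N replicate 2 and none on WT high N replicate 3. On rmc high N replicate 2, Les.5366.1.S1_at read 9.6117, above 4.7631 to 6.1363 on the other 4 arrays, LesAffx.39771.2.S1_at read 7.4897, above 5.3093 to 5.7525, and LesAffx.51319.1.S1_at read 7.9388, below 8.8746 to 9.2557.

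The other 6 were scattered over arrays. Les.2512.2.S1_at read 5.6301 on rmc water replicate 1, with the others at 5.9522 to 5.9707. Les.2689.3.S1_at read 0.0724 on rmc high N replicate 3, with the others at 2.0243 to 2.7487, all under background. LesAffx.3499.2.A1_at read 8.4325 on rmc low N replicate 5, with the others at 9.5224 to 9.9013. LesAffx.39771.2.S1_at read 4.5228 on rmc low N replicate 2, with the others at 6.562 to 7.3553. Les.2689.2.S1_at read 7.8208 on WT high N replicate 5, with the others at 8.3105 to 8.4474. Les.5366.1.S1_at read 9.5167 on WT water replicate 4, with the others at 7.8488 to 8.3161. The cause of none of these was tested.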

How the results depend on the processing

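The number of probe sets that met the rule was 22 with a WT mean of at least 8, 60 with a difference of at least 0.5 and 13 with one of at least 1, and 26 to 50 without single arrays. Scaling to the poly-A spikes gave 45 (29 of them members) and group medians gave 52 (25 of them members). The median rmc minus WT ran without single arrays between -1.24 and -0.848 under water, -1.55 and -1.21 under low N, and -1.52 and -1.07 under high N. The median spread between WT arrays was 0.384 when taken as an interquartile range rescaled to an SD.

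For high N against water over both genotypes, 17 members were called with poly-A scaling, beside 78.1% of all probe sets tested, 10 with array weights, beside 50.5%, and 6 to 10 without single arrays, beside 26.3% to 41.0% (the 10 without WT high N replicate 3, beside 36.3%), where the reported fit had 6 beside 34.1%. LesAffx.3499.2.A1_at was at -0.36 (adjusted p = 0.0730) with poly-A scaling, and kept its call under the other 9 settings and without any single array. The other 5 called members kept direction and call under every setting that tested them, at adjusted p of at most 0.0383 from limma. Poly-A scaling raised every response to high N, so it was a weak check on these 5. Leaving out the lowest 50% of probe sets left 12 members tested and dropped Les.2512.2.S1_at.

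Within genotypes the counts describe means that entered the rule, and the share of all probe sets called is given beside each. In rmc 2 members were called (4.34% of all), and 1 with quantile normalization (4.22%), 0 with median centring (2.74%), 16 with poly-A scaling (85.4%), 0 with no filter (2.51%), 1 with the lowest 50% left out (7.69%), 6 with array weights (22.9%), 0 with only the groups compared (0.0531%), and 0 to 4 without single arrays (0.677% to 13.6%, the lowest without rmc water replicate 1 among others, the highest without rmc high N replicate 1). In WT 4 were called (18.3% of all), and 0 with poly-A scaling (0.12%), 7 with array weights (36.6%) and 1 to 7 without single arrays (6.20% to 22.3%, the highest without WT high N replicate 3). The cause was not tested. No low N setting called a member.

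With the replicate number as a block, 7 members were called over both genotypes, 2 in rmc and 4 in WT for high N, and 0 for low N. The block thus changed no count by over 1.5 times, which does not show that the same members were called. The share of all probe sets called with the block is not given here, so nothing is read from these counts. Same-numbered arrays correlated with medians of -0.04 to 0.24, so the numbers were not taken to pair samples. Poly-A scaling used Lys, Phe, Thr and Dap, since the Trp probe sets read at background. Low readings limit the 7 members with rmc values at or under the negative controls, whose log2 differences have no firm size. Raising such readings to background for the members not wholly under it was chosen after seeing the data.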
